A study of Homo sapiens with 4 samples.

Results

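The AP-1, EGR and NR4A immediate early genes were examined in MOLM-13 cells, with 10 members among the 27800 gene symbols of the expression table. They were taken by symbol: FOS, FOSB, JUN, JUNB, JUND, ATF3, EGR1, EGR2, NR4A1 and IER2. All 10 were found and all 10 had a mean of at least 1 TPM over the libraries, the level required for testing. TPM (transcripts per 1000000) is a share of each library that is divided by transcript length, so levels can be compared between genes.

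MOLM-13 is a human acute myeloid leukaemia line that carries a KMT2A-MLLT3 fusion. Cells received lentiviral CRISPR-Cas9 with a guide against KAT6A, labelled sgKAT6A, or with a vector labelled EV. There were 2 sgKAT6A and 2 EV libraries, and all 4 were from the same line and the same kind of delivery. KAT6A, also called MOZ, is a histone acetyltransferase, and the study asked how its loss alters the transcription program of these cells. The labels do not say what EV contains, whether cells were cloned, when they were harvested or whether replicates were separate cultures, so p-values cover no more than the spread among these libraries.

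Immediate early genes are switched on within minutes of a growth factor, cytokine or stress signal, without new protein synthesis. FOS and JUN family proteins pair through leucine zippers into the AP-1 transcription factor, EGR proteins bind GC-rich sites through zinc fingers, and NR4A proteins are orphan nuclear receptors. In myeloid cells AP-1 and EGR factors are known for their part in monocyte and macrophage differentiation. Their transcripts are known to be short-lived.

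Upstream DNA is shown for EGR1 and EGR2, since these related genes had different patterns across the libraries. The part of upstream sequence in those patterns was not tested. Each stretch is the 250 bases before the RefSeq start (GRCh38.p14), written 5′ to 3′ on the gene's strand. Capitals mark matches to a CArG box, the site of serum response factor, or to the EGR site GCGNGGGCG. EGR1 is at chr5:138465229-138465478, plus strand, and EGR2 at chr10:62819168-62819417, minus strand. The EGR2 stretch is upstream of the RefSeq start only, since it lies inside the longer GENCODE span of EGR2, 62811996 to 62919900.
EGR1: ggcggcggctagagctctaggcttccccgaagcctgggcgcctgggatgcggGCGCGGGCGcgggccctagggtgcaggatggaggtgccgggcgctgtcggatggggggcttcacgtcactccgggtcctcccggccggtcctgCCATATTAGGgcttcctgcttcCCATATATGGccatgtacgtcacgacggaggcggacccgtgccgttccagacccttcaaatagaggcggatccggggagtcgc
EGR2: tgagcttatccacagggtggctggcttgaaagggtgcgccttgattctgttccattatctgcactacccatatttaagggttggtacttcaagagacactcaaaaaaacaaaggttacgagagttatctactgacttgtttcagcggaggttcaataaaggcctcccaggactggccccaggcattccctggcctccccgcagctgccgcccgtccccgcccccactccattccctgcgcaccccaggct

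The EGR1 window held 2 CArG boxes, at bases 105 to 96 and 83 to 74 before the start, and an EGR site at bases 198 to 190. On either strand, 1.16% of 35116 RefSeq promoter windows of this length held a CArG box and 8.41% held an EGR site. The EGR2 window held no match to either motif, nor to the cyclic AMP response element TGACGTCA, the AP-1 site TGANTCA, the NR4A site AAAGGTCA or TATAAA.

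Promoter windows of all 10 members were in the RefSeq table. For each member only the window before its RefSeq start was searched, and any other starts of these genes were not. The shorter site TGACG, which is part of TGACGTCA, was in 7 of the 10 on either strand and in 21.2% of all windows. TGACGTCA itself was in the window of JUND alone among the members and in 1.65% of all windows, and TATAAA was in those of FOS, FOSB and JUNB and in 10.7% of all windows. TGANTCA was in no member window and in 6.57% of all windows, and AAAGGTCA was in that of ATF3 and in 1.05% of all windows. The variant AP-1 site TGACATCA, known from the JUN promoter, was added to the search after the sequences were seen, and was in the windows of JUN and ATF3 and in 2.37% of all windows. Both matches are shown with 11 bases on each side and the site in capitals, because no other member window held this site. JUN, ATF3 and JUNB had the same order of levels across the libraries, and the JUNB window held no match to this site. The part of the site in those levels was not tested. The JUN stretch is chr1:58784096-58784125, minus strand, and the ATF3 stretch chr1:212565273-212565302, plus strand (GRCh38.p14). RefSeq and GENCODE place the start of JUN differently. In GENCODE the gene spans 58780788 to 58784327, so the JUN stretch and its whole window lie inside it. They are upstream of the RefSeq start only. The ATF3 stretch lies before the GENCODE start of ATF3 as well, at 212565334.
JUN: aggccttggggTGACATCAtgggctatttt
ATF3: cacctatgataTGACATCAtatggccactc

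Before the members, the libraries themselves were compared. KAT6A was at 12.2 and 10.8 TPM in sgKAT6A replicates 1 and 2, against 16.2 and 16.7 TPM in EV replicates 1 and 2, so the targeted transcript was lower in both libraries than in either EV library (log2 difference -0.48, adjusted p = 0.784 by limma). Paired values are given in the order of replicates 1 and 2 of a group. Libraries within each group differed widely, and sgKAT6A replicate 2 stood apart in its 18S ribosomal RNA symbol, RNA18SN5, at 339.5 TPM against 10401 to 13751 TPM in the other libraries. Defining markers of the line were present in each library, with 8 of 9 at 1 TPM or more, among them HOXA9, MEIS1 and FLT3. Lists of markers of other cell types held both absent and abundant genes. Of 10 T, NK and B cell markers, 3 or 4 were at 1 TPM or more in each library, and their summed level was 130.9 and 230.4 TPM in sgKAT6A cells, against 102.2 and 169.9 TPM in EV cells. Most of this was NKG7, a cytotoxic granule protein, at 93.1 to 208.3 TPM, followed by CD3D at 5.65 to 11.5 TPM, while CD2 and MS4A1 were listed at 0 in all 4 libraries. Of 10 erythroid and megakaryocyte markers, 5 were at 1 TPM or more in each library, with a summed level of 403.8 and 261.3 TPM in sgKAT6A cells, against 157.9 and 424.5 TPM in EV cells. The globin genes HBB, at 38.6 to 192.2 TPM, and HBA1, at 67.3 to 200.8 TPM, made up most of it, and PF4 and PPBP, which define platelets, were listed at 0 in all 4 libraries. NKG7 had the library order of JUN, and the part of these genes in the member values was not tested. Depth is unknown because TPM keeps none, so no counting interval or detection limit could be given.

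The 10 members fell into an abundant and a scarce set, and the order of the abundant set was the same in every library. JUND came first, then JUNB, FOS and IER2. Mean levels over the 4 libraries were 131.7 TPM for JUND, 104.2 for JUNB, 72.9 for FOS and 49.8 for IER2, above 94.2%, 92.4%, 89.0% and 83.9% of the 12603 genes tested. The ranges of JUND and JUNB overlapped, as did those of JUNB and FOS, whereas the lowest FOS library was above the highest IER2 library. The scarce set followed after a gap, with JUN at a mean of 6.22 TPM, EGR1 at 3.69, ATF3 at 2.31, EGR2 at 1.48, NR4A1 at 1.33 and FOSB at 1.31. Among these 6, the range of each gene overlapped that of its neighbour in the order. The plot of levels by library shows both sets.

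**Figure D1:**
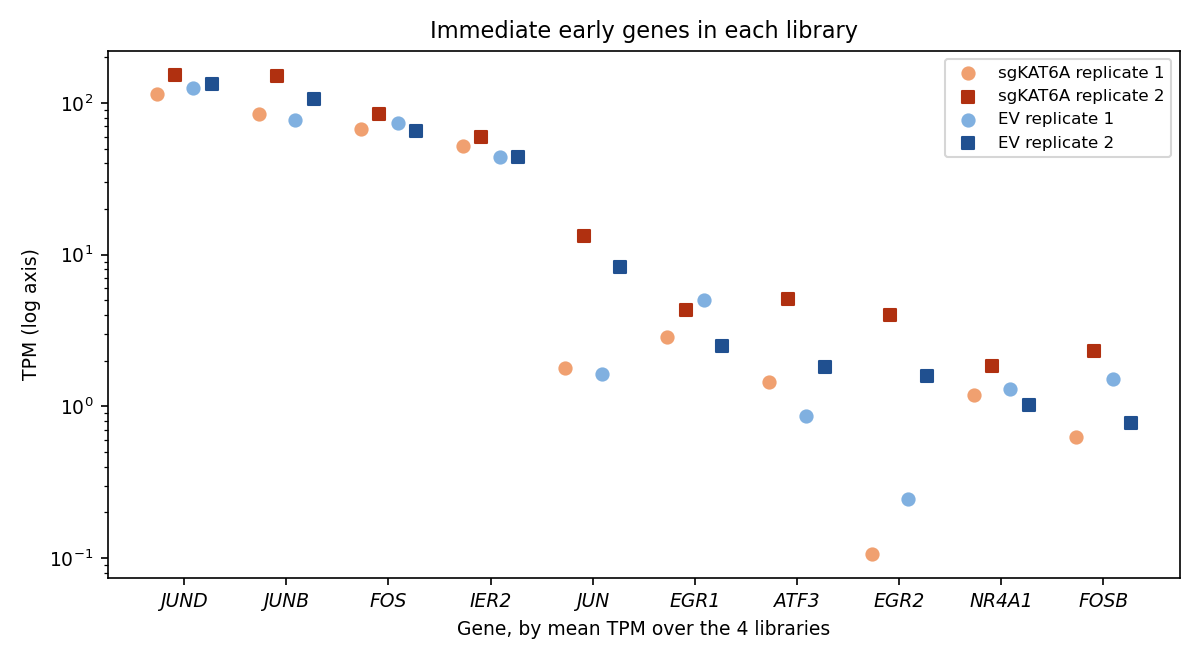
TPM on a log axis for each of the 10 members (x axis, by mean level), with 1 point for each of the 2 sgKAT6A and 2 EV libraries. JUND, JUNB, FOS and IER2 sit above 44 TPM in every library, the other 6 at or below 13.2 TPM, and the largest vertical spread is that of EGR2.

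No member passed the test between sgKAT6A and EV. With limma on log2(TPM + 1) and Benjamini-Hochberg adjustment over all genes tested, 0 of 12603 genes had an adjusted p under 0.05 (0%), and the smallest adjusted p was 0.191. At an unadjusted p under 0.05 there were 0 of 10 members by limma, against 3.64% of all genes tested (459 genes). The median log2 difference of the members was 0.26, against -0.02 over all genes tested. A positive difference was found for 9 of 10 members and 47.4% of all genes. That count depended on 1 library: without sgKAT6A replicate 2 it was 3 of 10, and the median was -0.14. Without sgKAT6A replicate 1 the median was 0.53. One member, IER2, had both sgKAT6A libraries above both EV libraries, which is 10% of the members against 14.4% of all genes, and 0 members were lower without overlap, against 23.2% of all genes. With median-of-ratios scaling the shares of all genes were 18.3% higher and 18% lower, and IER2 remained the member without overlap. With 2 libraries per group, the smallest two-sided p that an exact permutation test allows is 0.333.

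**Figure D2:**
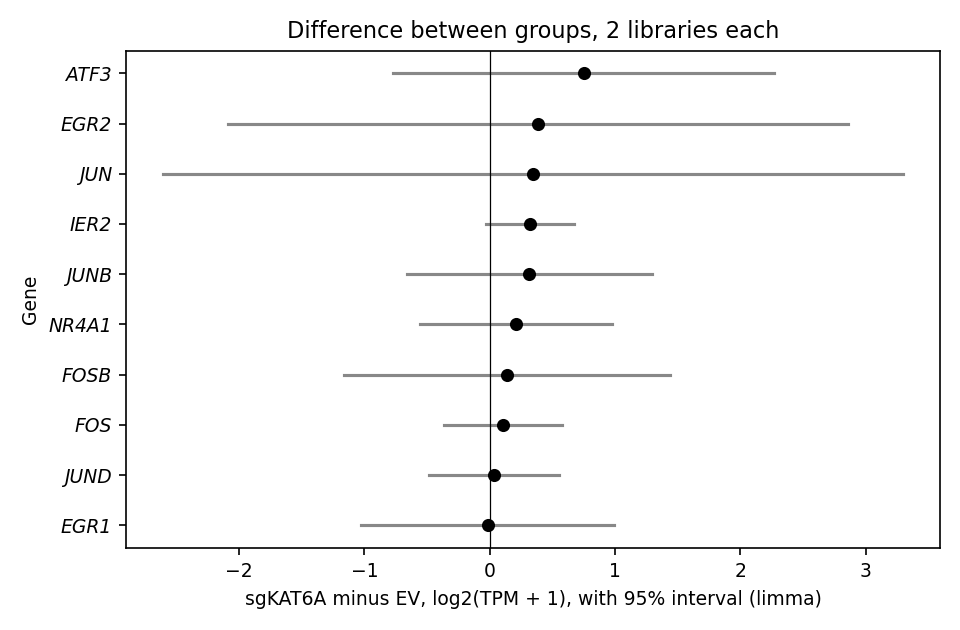
Difference between sgKAT6A and EV on the log2(TPM + 1) scale (x axis) for each member (y axis); points are limma estimates from 2 libraries per group and bars their 95% intervals. Every interval includes 0, and the interval of JUN, from -2.60 to 3.30, is the widest.

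FOS, the namesake partner in AP-1 dimers, lies on chromosome 14 at positions 75278774 to 75282230 (plus strand, GENCODE 29 on GRCh38, as for all gene positions here). It was at 67.1 and 84.4 TPM in sgKAT6A cells, against 74.3 and 65.7 TPM in EV cells. The groups overlapped, with sgKAT6A replicate 2 highest and EV replicate 2 lowest. The log2 difference was 0.11 ± 0.17 (SE; 95% interval -0.36 to 0.58; adjusted p = 0.867 by limma).

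FOSB, a paralog of FOS (chromosome 19, 45467995 to 45475179, plus strand), was at 0.631 and 2.31 TPM in sgKAT6A cells, against 1.50 and 0.777 TPM in EV cells. The sgKAT6A libraries lay on either side of both EV libraries. Its log2 difference was 0.14 ± 0.47 (SE; adjusted p = 0.932 by limma). On the opposite strand its gene body overlaps ERCC1, a DNA repair gene, but their exons do not overlap.

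JUN, which encodes c-Jun, the JUN protein with the strongest transactivation, lies on chromosome 1 at 58780788 to 58784327 (minus strand). It was at 1.79 and 13.2 TPM in sgKAT6A cells, against 1.64 and 8.28 TPM in EV cells. Both libraries numbered 2 were high and both numbered 1 were low, whichever group they belonged to. The highest library was 8.05 times the lowest, and the log2 difference between groups was 0.35 ± 1.06 (SE; adjusted p = 0.93 by limma).

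JUNB, which can restrain c-Jun activity and is a growth regulator of myeloid cells in mice, lies on chromosome 19 at 12791496 to 12793315 (plus strand). It was at 84.0 and 150.3 TPM in sgKAT6A cells, against 76.9 and 105.6 TPM in EV cells. The order of the libraries was that of JUN, with both libraries numbered 2 above both numbered 1. The log2 difference was 0.32 ± 0.35 (SE; adjusted p = 0.818 by limma). HOOK2, on the opposite strand, shares exon sequence with JUNB and was at 11.8 and 10.3 TPM in sgKAT6A cells and at 7.64 and 9.11 TPM in EV cells. Whether reads were assigned by strand is not stated for these libraries.

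JUND, the JUN family member expressed most constantly in many cell types (chromosome 19, 18279760 to 18281622, minus strand), was at 114.2 and 153.5 TPM in sgKAT6A cells, against 124.8 and 134.2 TPM in EV cells. The sgKAT6A libraries lay on either side of both EV libraries. The log2 difference was 0.03 ± 0.19 (SE; 95% interval -0.48 to 0.55; adjusted p = 0.964 by limma).

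ATF3, a stress-induced bZIP factor that pairs with JUN proteins, lies on chromosome 1 at 212565334 to 212620777 (plus strand). It was at 1.46 and 5.08 TPM in sgKAT6A cells, against 0.864 and 1.83 TPM in EV cells. Within each group the library numbered 2 was higher, and sgKAT6A replicate 1 lay between the EV libraries. Its log2 difference was the largest of the members, 0.75 ± 0.55 (SE), with a 95% interval of -0.77 to 2.27 (adjusted p = 0.784 by limma), and it was 0.10 without sgKAT6A replicate 2.

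The pair of EGR genes, zinc finger factors of growth and macrophage differentiation, differed from each other across the libraries. EGR1 (chromosome 5, 138465490 to 138469315, plus strand) was at 2.86 and 4.34 TPM in sgKAT6A cells, against 5.06 and 2.48 TPM in EV cells. It was the only member whose highest library was EV replicate 1, and both sgKAT6A libraries lay between the EV libraries. EGR2 (chromosome 10, 62811996 to 62919900, minus strand) was at 0.106 and 3.97 TPM in sgKAT6A cells, against 0.245 and 1.58 TPM in EV cells. Both libraries numbered 2 were high, and the highest was 37.3 times the lowest, although levels under 1 TPM are of unknown precision here. The log2 differences were -0.02 ± 0.36 for EGR1 (adjusted p = 0.991 by limma) and 0.39 ± 0.89 for EGR2 (adjusted p = 0.908 by limma, both ± SE). The EGR1 difference was 0.0063 with median-of-ratios scaling.

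NR4A1, also called NUR77, is an orphan nuclear receptor whose loss together with NR4A3 gives acute myeloid leukaemia in mice. It lies on chromosome 12 at 52022832 to 52059507 (plus strand). It was at 1.19 and 1.83 TPM in sgKAT6A cells, against 1.30 and 1.02 TPM in EV cells, and the groups overlapped. The order of its libraries was that of FOS, and the log2 difference was 0.21 ± 0.28 (SE; adjusted p = 0.842 by limma). In GENCODE 29 a long non-coding RNA on the opposite strand shares exon sequence with it.

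IER2, a small nuclear protein of the early growth response, lies on chromosome 19 at 13150415 to 13154908 (plus strand). It was at 51.8 and 59.2 TPM in sgKAT6A cells, against 44.2 and 44.0 TPM in EV cells. Both sgKAT6A libraries were above both EV libraries, and the EV libraries differed by less than for any other member. The means were 55.5 ± 5.20 TPM in sgKAT6A cells and 44.1 ± 0.106 TPM in EV cells (SD, n = 2 each), a ratio of 1.26. On the log2 scale it differed by 0.32 ± 0.13 (SE; 95% interval -0.03 to 0.68; adjusted p = 0.784 by limma), and by 0.23 to 0.42 on leaving out 1 library at a time. An antisense gene in GENCODE 29 shares exon sequence with IER2, and whether counting used strand is not given in the sources used here.

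For 9 of 10 members, all but IER2, the larger gap between the libraries of a group exceeded the difference between the groups, which was so for 76.3% of all genes tested. In 9 of 10 members the highest library was sgKAT6A replicate 2, against 31.4% of all genes tested, and with median-of-ratios scaling the values were 9 of 10 and 36%. The same library stood apart in RNA18SN5, and the part of library quality in these values was not tested. Between the sgKAT6A libraries, 4 members had a gap above 1 in log2(TPM + 1), which is 2-fold, (FOSB, JUN, ATF3 and EGR2), against 8.61% of all genes. Between the EV libraries JUN and EGR2 did so, 2 of 10 members against 6.51% of all genes. For 5 members both libraries numbered 2 were above both numbered 1 (JUN, JUNB, JUND, ATF3 and EGR2), which was so for 27.6% of all genes. FOS, FOSB, EGR1 and NR4A1 instead had EV replicate 1 above EV replicate 2, with gaps of -0.17, -0.49, -0.80 and -0.19 (log2, EV replicate 2 minus replicate 1). IER2 had its EV libraries in that order too, but nearly level, with a gap of -0.0048.

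**Figure D3:**
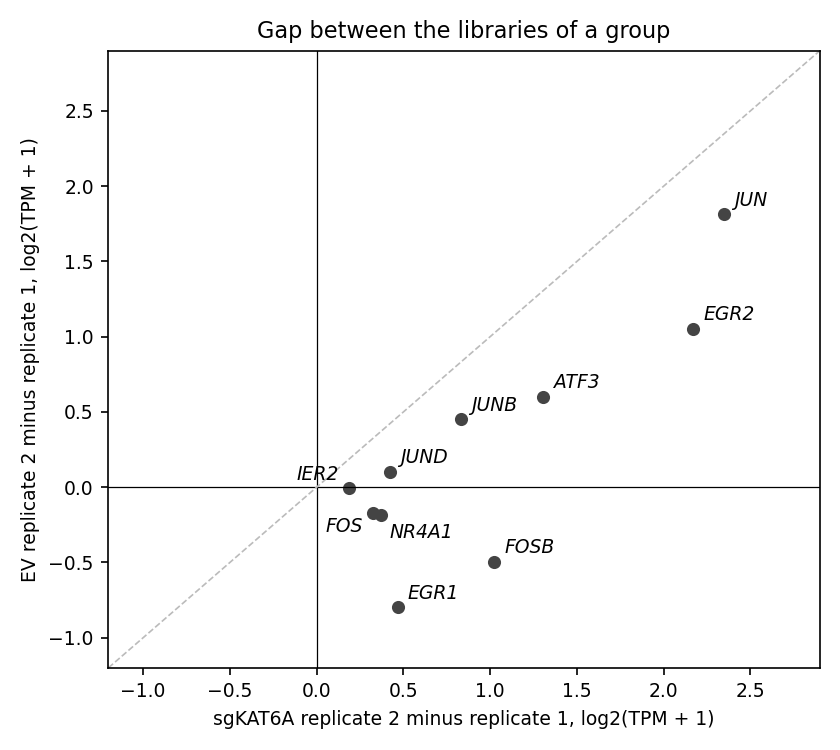
Gap between the libraries of a group in log2(TPM + 1), replicate 2 minus replicate 1, for sgKAT6A (x axis) and EV (y axis), with 1 point per member and a dashed line where both gaps are equal. All members lie right of 0, JUN (2.35 and 1.81) and EGR2 (2.17 and 1.05) lie farthest out, and EGR1, FOSB, FOS and NR4A1 lie clearly below 0 on the EV axis.

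Likeness between members was described as the root mean square difference of their log2(TPM + 1) values, each centred on its own mean, over the 4 libraries. FOS and NR4A1 were the most alike, at 0.054, and JUN and EGR1 the least alike, at 1.15. JUN was nearest to EGR2, at 0.28, and JUNB was nearer to JUND, at 0.24, than to JUN, at 0.72. Outside the members, the genes nearest to the median member profile were ZNF395, CDKN2D, TMC6, NFU1 and NRGN, at 0.041 to 0.061. They came from 6725 genes that averaged 10 TPM or more and, where annotated, were protein-coding. ZNF395, for example, was at 15.4 and 26.4 TPM in sgKAT6A cells and at 17.5 and 16.5 TPM in EV cells. The median member profile itself, in centred log2(TPM + 1), was -0.25 and 0.43 in sgKAT6A replicates 1 and 2. It was -0.11 in each EV library. As a median, it does not show the EV gaps of single members, which went both ways.

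Because the levels are per length, the makeup of each family could be compared. JUN was 0.894% and 4.16% of the summed JUN, JUNB and JUND level in sgKAT6A, against 0.806% and 3.34% in EV cells, so JUN stayed a small part of its family in each library. JUNB was 42.0% and 47.4% of that sum in sgKAT6A, against 37.8% and 42.6% in EV cells. The sum itself was 200 and 317 TPM in sgKAT6A cells, against 203 and 248 TPM in EV cells. EGR2 was 3.58% and 47.8% of the summed EGR1 and EGR2 level in sgKAT6A, against 4.62% and 38.9% in EV cells. The shares of JUN and EGR2 followed the replicate number, as the plot of family makeup shows. The JUNB share was also higher in each sgKAT6A library than in the EV library of the same number.

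**Figure D4:**
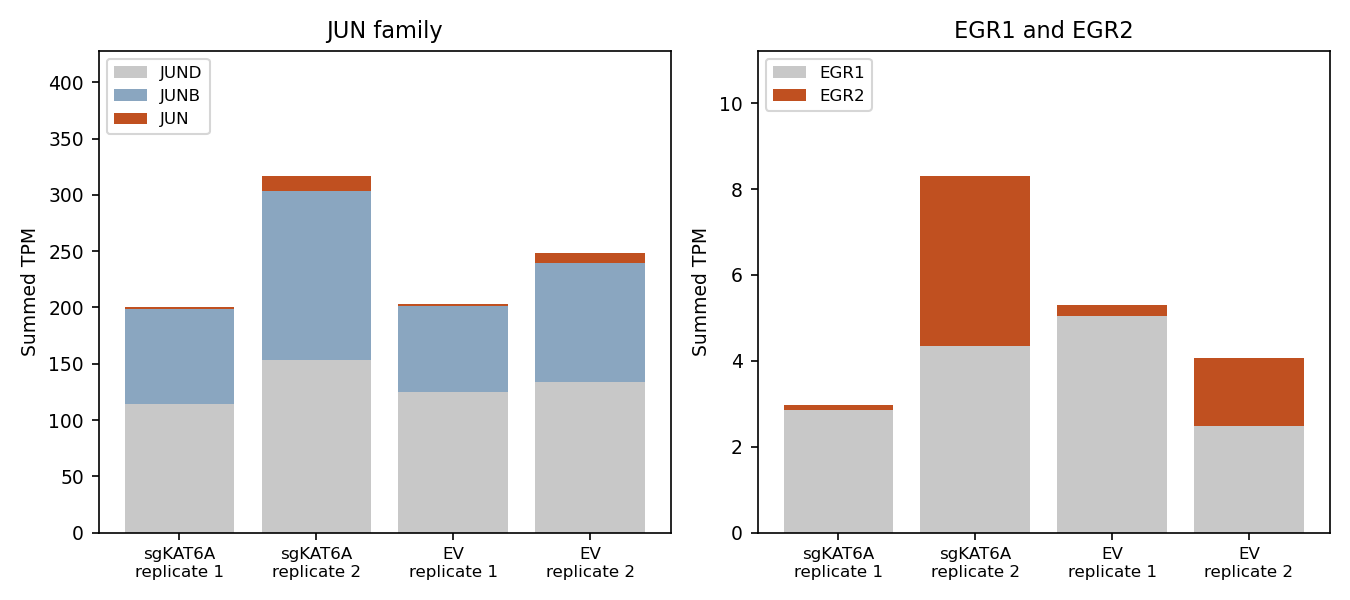
Summed TPM (y axis) of the JUN family (left) and of EGR1 and EGR2 (right) in the 2 sgKAT6A and 2 EV libraries (x axis), with colours for the genes. JUN and EGR2, at the top of each bar, are larger in both libraries numbered 2.

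The other AP-1 family genes were described from a list of 13, of which 11 were tested. None passed by limma. A positive difference was found for 8 of the 11, against 47.4% of all genes, and without overlap of the groups 4 were higher and 1 was lower in sgKAT6A, against 14.4% and 23.2% of all genes. Their median log2 difference was 0.19, but it was 0.091 or 0.12 on leaving out sgKAT6A replicate 1 or 2, and 0.047 on leaving out EV replicate 1. FOSL2, which encodes the FOS paralog FRA-2, was at 77.7 and 65.9 TPM in sgKAT6A cells, against 57.7 and 49.9 TPM in EV cells, a level like that of FOS. Its log2 difference was 0.41 ± 0.15 (SE; adjusted p = 0.784 by limma). ATF2, a bZIP partner of c-Jun, was at 12.9 and 15.4 TPM in sgKAT6A cells and at 12.1 and 12.2 TPM in EV cells. BATF3, a bZIP factor of dendritic cell development, had lower values, at 0.873 and 0.644 TPM in sgKAT6A cells, against 2.02 and 1.31 TPM in EV cells. MAFF, a small MAF protein, was at 2.31 and 5.73 TPM in sgKAT6A cells and at 1.39 and 2.54 TPM in EV cells, with overlap of the groups.

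The rest of the EGR and NR4A families was low, and of 6 such genes, NAB corepressors included, only NAB2 was tested. EGR3, EGR4, NR4A2 and NR4A3 were below 1 TPM in every library, and EGR4 was listed at 0 in both sgKAT6A libraries and in EV replicate 2. The EGR corepressor NAB2, itself a target of EGR1, was at 3.87 and 8.15 TPM in sgKAT6A cells and at 3.81 and 6.36 TPM in EV cells. It was high in the libraries numbered 2, and its log2 difference was 0.17 ± 0.41 (SE; adjusted p = 0.914 by limma). That direction rested on single libraries, since the difference was -0.29 with sgKAT6A replicate 2 left out and -0.14 with EV replicate 1 left out. It was 0.62 when sgKAT6A replicate 1 was omitted and 0.47 when EV replicate 2 was omitted.

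A list of 46 other immediate early and early response genes had 40 tested, of which none passed by limma. Of these, 33 had a positive difference, against 47.4% of all genes. The median log2 difference was 0.33, against -0.02 over all genes tested, but the list median was -0.02 without sgKAT6A replicate 2. Leaving out sgKAT6A replicate 1 gave 0.76, leaving out EV replicate 1 gave 0.079, and leaving out EV replicate 2 gave 0.57. Without overlap, 10 were higher and 3 were lower in sgKAT6A, shares of 25% and 7.5% against the 14.4% and 23.2% of all genes. In 30 of the 40 the highest library was sgKAT6A replicate 2, against 31.4% of all genes. GADD45B, a stress response protein, was at 17.5 and 21.7 TPM in sgKAT6A cells, against 13.2 and 13.9 TPM in EV cells (log2 difference 0.49 ± 0.16, SE; adjusted p = 0.784 by limma). DUSP6, a phosphatase that switches ERK off, was at 9.25 and 14.5 TPM in sgKAT6A cells, against 6.59 and 7.42 TPM in EV cells. ZFP36L2, which promotes decay of AU-rich messages, was at 174.2 and 221.6 TPM in sgKAT6A cells, against 140.9 and 158.2 TPM in EV cells. These 3 were higher in both sgKAT6A libraries, while DUSP2, another MAP kinase phosphatase, was lower, at 9.20 and 10.0 TPM in sgKAT6A cells, against 12.7 and 11.3 TPM in EV cells.

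Genes of the machinery that switches immediate early genes on varied less. Of 30 such genes (serum response factor and its partners, CREB factors, and RAS and MAP kinase pathway genes), 29 were tested. None passed by limma, and the median log2 difference was 0.06. A positive difference was found for 23 of the 29, against 47.4% of all genes. Without overlap of the groups, 4 were higher and 4 were lower in sgKAT6A, against 14.4% and 23.2% of all genes. Leaving out sgKAT6A replicate 2 gave a median of 0.024, leaving out EV replicate 1 gave -0.011, and leaving out EV replicate 2 gave 0.16. Between the libraries of either group, none had a gap above 1 in log2(TPM + 1), against 8.61% of all genes between the sgKAT6A and 6.51% between the EV libraries. HRAS, a RAS GTPase, was at 25.2 and 19.6 TPM in sgKAT6A cells, against 33.5 and 26.6 TPM in EV cells. CREBBP, the acetyltransferase coactivator CBP, was at 17.7 and 13.9 TPM in sgKAT6A cells, against 12.8 and 13.1 TPM in EV cells. CREB1, which binds cyclic AMP response elements, was at 20.0 and 23.0 TPM in sgKAT6A cells, against 18.5 and 19.3 TPM in EV cells. ELK3, a ternary complex factor, was at 10.1 and 13.2 TPM in sgKAT6A cells and at 6.15 and 10.6 TPM in EV cells, and its groups overlapped.

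Most monocyte markers moved with JUN, EGR2 and ATF3 across the libraries. CD14, the lipopolysaccharide co-receptor, was at 3.04 and 54.3 TPM in sgKAT6A cells, against 1.08 and 29.3 TPM in EV cells, and ITGAM, the integrin CD11b, was at 12.3 and 52.1 TPM in sgKAT6A cells, against 3.74 and 21.5 TPM in EV cells. Of 13 monocyte markers, 11 were tested, and 8 of these had both libraries numbered 2 above both numbered 1, against 27.6% of all genes. All 11 had a positive difference between sgKAT6A and EV, against 47.4% of all genes, with a median log2 difference of 0.95. None passed by limma, and 2 of the 11 were higher without overlap, against 14.4% of all genes. VCAN, an extracellular matrix proteoglycan, had another order, at 26.8 and 16.2 TPM in sgKAT6A cells and at 18.2 and 15.8 TPM in EV cells, and LYZ, lysozyme, was at 10975 and 9500 TPM in sgKAT6A cells, against 7060 and 8068 TPM in EV cells. The summed level of the 13 was 11964 and 11729 TPM in sgKAT6A cells, against 7484 and 9478 TPM in EV cells, and was mostly LYZ. CD163 and MRC1, markers of mature macrophages, were at or near 0. Of 7 granulocyte markers 6 were tested, with a median log2 difference of -0.02, and the granule proteases ELANE and PRTN3 were lower in both libraries numbered 2. ELANE was at 1162 and 563.8 TPM in sgKAT6A cells and at 1494 and 607.5 TPM in EV cells, and MPO, myeloperoxidase, was also lower in those libraries. Without overlap 2 of the 6, CEBPE and CAMP, were higher in sgKAT6A and 0 were lower, against 14.4% and 23.2% of all genes. CEBPE was at 5.28 and 5.32 TPM in sgKAT6A cells, against 2.99 and 2.59 TPM in EV cells. CAMP was at 2.39 and 3.11 TPM in sgKAT6A cells, against 0.906 and 1.53 TPM in EV cells. Neither passed by limma. The summed level of the 7 granulocyte markers was 7188 and 4201 TPM in sgKAT6A cells, against 9196 and 5232 TPM in EV cells. The part of monocytic or granulocytic gene expression in the member values was not tested, and in bulk RNA fewer cells of a type and less RNA per cell cannot be told apart.

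Stress and handling genes went both ways. Of 22 such genes 20 were tested and none passed by limma, and without overlap 1 was higher and 8 were lower in sgKAT6A, against 14.4% and 23.2% of all genes (18.3% and 18% with median-of-ratios scaling). The median log2 difference was -0.12, but -0.19 without sgKAT6A replicate 2, -0.21 for genes averaging 5 TPM or more and -0.012 with no filter. The highest library was sgKAT6A replicate 2 in 8 of the 20, against 31.4% of all genes, and 6 had a gap above 1 in log2(TPM + 1) between the sgKAT6A libraries, against 8.61% of all genes. Hypoxia and stress genes that peaked in sgKAT6A replicate 2, as most members did, are given here after their values were seen. NDRG1 was at 132.5 and 383.1 TPM in sgKAT6A cells and at 109.0 and 176.1 TPM in EV cells, and VEGFA, an angiogenic growth factor, was at 19.0 and 58.6 TPM in sgKAT6A cells and at 16.6 and 32.8 TPM in EV cells. DDIT4, an inhibitor of mTORC1 signalling, was at 12.6 and 57.4 TPM in sgKAT6A cells and at 12.1 and 13.3 TPM in EV cells. BNIP3, a mitophagy receptor, was at 13.6 and 34.4 TPM in sgKAT6A cells and at 16.4 and 18.01 TPM in EV cells. Heat shock genes mostly had lower values in sgKAT6A. HSPA1A, an inducible heat shock protein, was at 10.6 and 13.2 TPM in sgKAT6A cells, against 13.5 and 18.2 TPM in EV cells, and its near-identical copy HSPA1B was at 70.9 and 57.4 TPM in sgKAT6A cells, against 72.8 and 74.8 TPM in EV cells. Reads could be split between these copies, so their single levels are uncertain. DDIT3, a stress-induced bZIP factor, was at 13.2 and 21.2 TPM in sgKAT6A cells and at 11.7 and 16.0 TPM in EV cells, in the library order of JUN. Among the genes of the list with the smallest unadjusted p, TXNIP was at 56.7 and 96.8 TPM in sgKAT6A cells, against 46.2 and 52.1 TPM in EV cells. The chaperone genes DNAJA1 and HSPD1 had lower values, DNAJA1 at 116 and 84.3 TPM in sgKAT6A cells, against 142.9 and 124.4 TPM in EV cells. HSPD1 was at 356.2 and 217.7 TPM in sgKAT6A cells, against 474.8 and 359.6 TPM in EV cells. TRIB3, a pseudokinase of the ATF4 response, was at 11.6 and 10.8 TPM in sgKAT6A cells, against 17.7 and 12.7 TPM in EV cells. The part of stress or handling in the member values was not tested.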

How the data were processed

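The authors deposited gene-level TPM for the 4 libraries in 1 table, quantified by Salmon against hg38, per the submitters' processing notes. Which Salmon version, transcript set, strand setting or filters were used is not given in the sources. Each library sums to 1000000 TPM and read depth is unknown, so no count model was used. Libraries were assigned to groups by title.

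Values were analysed as log2(TPM + 1), without further scaling, for the 12603 genes that averaged 1 TPM or more. Differences understate the change of low genes. The groups were fitted with limma 3.58.1 under R 4.3.3 (empirical Bayes, variance trend, degrees of freedom 2 residual and 1.98 prior, two-sided, Benjamini-Hochberg over all genes tested, threshold 0.05). The same fit was also run on simulated data, and those results are not given here. Lists are described by counts and medians, without a test. All members were named, with up to 4 genes of smallest unadjusted p per list, KAT6A, and the stress and monocyte genes HSPA1A, HSPA1B, DDIT3, CD14 and ITGAM. Also named were the 5 genes nearest the median member profile. Other markers and the hypoxia genes were named after their values were seen. Members and lists were chosen with earlier results of these data known. Symbols were matched through RefSeq synonyms. Promoter sequences are from RefSeq on GRCh38.p14 and gene positions from GENCODE 29 on GRCh38. Figures were drawn with matplotlib 3.10.9.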

Additional observations from a re-analysis of the deposited data

How the results depend on the processing

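No member passed the limma threshold under any alternative. The count of genes past it was 0 under each except the replicate number as a block, which gave 15 genes, none of them a member. The unadjusted count of 459 was 933 with no filter and 2417 with the block, and ran from 179 to 1212 when each library was left out. Under median-of-ratios scaling 282 of these genes were higher and 184 lower, against 210 and 249 in the values as deposited. The labels do not pair the libraries. Deviations of same-numbered libraries from their group means had r = 0.45 across genes, a hint from the data only. IER2 had an unadjusted p of 0.033 and an adjusted p of 0.226 by limma with the block. By limma its unadjusted p was also under 0.05 with no filter (0.042, adjusted p = 0.838) and with quantile normalization (0.043, adjusted p = 0.820).

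Leaving out each library in turn moved the members most. The count higher without overlap ran from 1 to 9, the count lower from 0 to 3, and the median difference from -0.14 to 0.53, in each case with an end set by leaving out sgKAT6A replicate 2 or replicate 1. Without sgKAT6A replicate 1, 9 members were higher and 0 lower, against 36.7% and 44.1% of all genes. Without sgKAT6A replicate 2, 1 was higher and 3 were lower, against 27.6% and 33.1% of all genes. Log2 differences that changed sign ran from -0.057 to 0.27 for FOS, -0.37 to 0.65 for FOSB, -0.83 to 1.52 for JUN and -0.10 to 0.73 for JUNB. They ran from -0.18 to 0.24 for JUND, -0.41 to 0.38 for EGR1 and -0.70 to 1.47 for EGR2. ATF3, NR4A1 and IER2 stayed positive. Of the other settings, only median-of-ratios scaling changed a sign, that of EGR1, to 0.0063. The median of the members was 0.15 to 0.32 under these settings. With 1 library in a group, the lone library is assumed to vary like the other group. The cause of these changes was not tested.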

Other observations

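Several early response genes outside the members had large gaps between the libraries of a group. They were picked after their values were seen. In the list of 46 other early response genes, 40 were tested. Between the sgKAT6A libraries 11 of the 40 had a gap above 1 in log2(TPM + 1), against 8.61% of all genes. Between the EV libraries it was also 11, against 6.51% of all genes. TNFAIP3, an inhibitor of NF-kB signalling, was at 9.87 and 60.0 TPM in sgKAT6A replicates 1 and 2, against 6.89 and 49.7 TPM in EV replicates 1 and 2. NFKBIA, which encodes the NF-kB inhibitor I-kappa-B alpha, was at 23.6 and 98.0 TPM in sgKAT6A cells, against 18.7 and 78.0 TPM in EV cells. IER3, an early response survival gene, was at 33.2 and 124.5 TPM in sgKAT6A cells, against 17.2 and 77.8 TPM in EV cells. All 3 were high in the libraries numbered 2 and had overlapping groups. MYC, also an early response gene, had the opposite order within each group, at 106.8 and 55.7 TPM in sgKAT6A cells, against 160.8 and 93.0 TPM in EV cells. FOSL1, the FOS paralog FRA-1, was also lower in the libraries numbered 2, at 12.1 and 4.63 TPM in sgKAT6A cells, against 9.52 and 6.47 TPM in EV cells. None of these passed by limma (adjusted p = 0.784 for MYC and 0.983 for FOSL1).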
